A study of Mus musculus with 7 samples.

Results

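The 4 genes that encode the pore-forming subunits of the AMPA receptor, Gria1, Gria2, Gria3 and Gria4, were followed at gene and transcript level in hippocampal synaptoneurosomes of mice given AM6545 or vehicle. They were chosen by identifier. The members were the entries of the gene table whose Ensembl identifier belongs to 1 of these genes, 4 of 22248 genes, and every transcript assigned to them, 26 of 102392 transcripts. Synaptoneurosomes are pinched-off nerve endings with part of the postsynaptic side still attached. All mice were wild-type C57Bl/6J females. AM6545, an antagonist of the cannabinoid CB1 receptor that enters the brain poorly, was given sub-chronically in 4 libraries (replicates B, D, E and F), and vehicle in 3 (replicates B, D and E). No label gives a dose, a length of treatment, an age or how many mice were pooled. Nothing in the labels says that replicates came from separate animals, so the p-values below measure the spread between these samples, which may be technical.

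AMPA receptors are tetramers that open on binding glutamate and carry most of the fast excitatory current in the hippocampus. Gria2 encodes GluA2, the subunit whose edited pore residue keeps calcium out, and in hippocampal pyramidal cells it assembles mainly with GluA1, the product of Gria1, or with GluA3, the product of Gria3. GluA4, the product of Gria4, is best known in interneurons and in the young hippocampus. Each subunit is made in a flip and a flop form by the choice of 1 of a pair of neighbouring exons next to the last membrane segment, and the form sets how fast the receptor desensitises and recovers.

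In GENCODE release M21, on GRCm38, Gria1 lies at chr11:57011387-57330244 on the plus strand and Gria2 at chr3:80681450-80802835 on the minus strand. Gria3 lies at chrX:41400854-41678601 on the plus strand and Gria4 at chr9:4417896-4796234 on the minus strand. Their longest annotated proteins hold 907, 883, 888 and 902 residues. In all 4 genes the flip and flop exons are coding exons of 115 bases each, with the flop exon first in the direction of transcription. The exons are shown because they are a stretch by which reads can be assigned to one form or the other. Letters are those of the coding strand, 5′ to 3′, with capitals at the bases that differ between the flip and flop exons of the same gene. The 1st pair is Gria1, flop at chr11:57309769-57309883 and flip at chr11:57310608-57310722.
Gria1 flop: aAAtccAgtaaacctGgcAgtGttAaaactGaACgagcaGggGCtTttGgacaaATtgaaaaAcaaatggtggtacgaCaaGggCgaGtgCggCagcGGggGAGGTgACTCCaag
Gria1 flip: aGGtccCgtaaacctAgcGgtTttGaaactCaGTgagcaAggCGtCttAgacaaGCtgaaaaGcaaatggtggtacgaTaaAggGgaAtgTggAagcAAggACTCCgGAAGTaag
The Gria2 pair lies at chr3:80691320-80691434 (flop) and chr3:80690404-80690518 (flip).
Gria2 flop: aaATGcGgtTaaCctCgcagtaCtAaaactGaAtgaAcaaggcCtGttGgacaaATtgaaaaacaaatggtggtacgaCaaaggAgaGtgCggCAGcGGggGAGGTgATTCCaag
Gria2 flip: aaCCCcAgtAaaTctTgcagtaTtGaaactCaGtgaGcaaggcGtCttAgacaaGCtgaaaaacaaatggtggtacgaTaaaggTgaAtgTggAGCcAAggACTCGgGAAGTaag
The Gria3 pair lies at chrX:41654810-41654924 (flop) and chrX:41669501-41669615 (flip).
Gria3 flop: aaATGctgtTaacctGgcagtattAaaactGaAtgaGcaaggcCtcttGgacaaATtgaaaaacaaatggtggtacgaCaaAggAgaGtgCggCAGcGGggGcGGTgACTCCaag
Gria3 flip: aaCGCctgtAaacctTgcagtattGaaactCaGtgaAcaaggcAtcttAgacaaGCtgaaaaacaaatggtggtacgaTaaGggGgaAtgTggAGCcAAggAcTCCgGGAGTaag
The Gria4 pair lies at chr9:4432773-4432887 (flop) and chr9:4427030-4427144 (flip).
Gria4 flop: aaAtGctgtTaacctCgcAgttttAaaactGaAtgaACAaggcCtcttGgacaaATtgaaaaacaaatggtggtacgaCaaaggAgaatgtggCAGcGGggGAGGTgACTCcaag
Gria4 flip: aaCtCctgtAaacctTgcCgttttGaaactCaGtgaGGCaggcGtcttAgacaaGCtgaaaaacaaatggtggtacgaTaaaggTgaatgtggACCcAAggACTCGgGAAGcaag

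The 2 forms of a gene differ more from each other than the same form does between genes. Flip and flop differed at 36 of 115 bases in Gria1 and in Gria2, at 32 in Gria3 and at 31 in Gria4, an identity of 68.7% to 73.0%. Between genes, flip exons were 87.8% to 92.2% identical and flop exons 87.8% to 94.8%. All 8 exons share a run past their middle, and the differing bases lie on both sides of it. For Gria1 and Gria4 the annotated flip and flop transcripts have 3′ ends of nearly equal length. For Gria2 and Gria3 they do not. The last exon is 7265 bases long in the flop transcript Gria2-201 and 920 in the flip transcript Gria2-202, and it is 2262 bases long in the flip transcript Gria3-201 and 246 in the flop transcript Gria3-202. In those 2 genes the estimate of the flip share therefore rests on 3′ end reads as well as on the cassette, and the 2 sources cannot be told apart in these tables. In Gria1 and Gria4 the models of the 2 forms also differ in total length. Gria1-201 (flip) has 5546 bases and Gria1-202 (flop) 5399, and Gria4-202 (flip) has 5352 and Gria4-204 (flop) 5207. Reads outside the cassette can therefore enter those estimates too.

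Libraries held 19174649 to 25894733 estimated counts, of which the 4 genes took 0.142% to 0.193%. Markers of every cell type looked for were detected in every library. These were 5 excitatory neuron, 6 inhibitory neuron, 5 astrocyte, 5 oligodendrocyte precursor, 5 oligodendrocyte, 5 microglia and 5 endothelial genes. The summed level of the oligodendrocyte precursor markers was 274 to 289 CPM (counts scaled to a common library size by TMM and given per 1e+06) in AM6545 and 304 to 332 CPM in vehicle, without overlap, with 4 of its 5 genes lower. Single genes did not overlap between the groups for 13.8% of all genes tested. Most of the precursor difference lay in Olig1, at 200 ± 5.50 CPM in AM6545 and 230 ± 8.83 CPM in vehicle, and the Pdgfra mean was slightly higher in AM6545. The excitatory neuron sum was 3033 to 3379 CPM in AM6545 and 3340 to 3991 CPM in vehicle, with overlap, also with 4 of 5 genes lower. Most of that difference lay in Nrgn, at 1351 ± 197 and 1743 ± 281 CPM, while the Neurod6 mean was higher in AM6545. Of the remaining lists, whose sums overlapped too, endothelial markers had 5 of 5 genes higher, astrocyte markers 4 of 5 higher and oligodendrocyte markers 4 of 5 lower. Inhibitory neuron markers had 4 of 6 lower and microglia markers 3 of 5 lower. In bulk samples of a fraction, the amount of material from a cell type and the RNA it holds cannot be told apart. Each library's level also sloped with GC content. Per 10 points of GC the slope was -0.06 ± 0.04 on the log2 scale in AM6545 (SD, n = 4) and 0.08 ± 0.04 in vehicle (SD, n = 3), so genes of low GC content were relatively higher in the AM6545 libraries.

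Levels were first set against each other per length, as TPM (transcript counts per length, scaled to the same total in each library) computed from the deposited transcript counts and annotated lengths. Gria2 was the most abundant of the 4 mRNAs at 378 ± 71.1 TPM (SD, n = 7 libraries), rank 370 of 18245 genes detected. Gria1 followed at 172 ± 8.71 TPM, rank 968. Gria3 stood at 55.3 ± 9.64 TPM, rank 3078, and Gria4 at 22.05 ± 5.83 TPM, rank 5791. Of the Gria4 level, 15.5 TPM came from Gria4-203, a short transcript of 433 codons described below. The order was the same in all 7 libraries, and no neighbours in it overlapped. Gria2 ran from 253 to 494 TPM, Gria1 from 156 to 182, Gria3 from 43.7 to 74.1 and Gria4 from 15.1 to 33.2. Relative to its mean, Gria1 spread least of the 4. On the same scale the obligatory NMDA receptor subunit Grin1 lay between Gria1 and Gria3 at rank 1150, and Grin2b lay just above Gria3 at rank 2654.

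On the CPM scale 3 of the 4 mRNAs had higher means in AM6545 and Gria1 had a lower one, and none of the differences passed the test. Gria1 measured 497, 469, 493 and 460 CPM in AM6545 replicates B, D, E and F, and 510, 497 and 509 CPM in vehicle replicates B, D and E. The lowest vehicle library, D, and the highest AM6545 library, B, lay almost level, and the groups met without overlapping. The means were 480 ± 18.2 CPM (SD, n = 4) and 506 ± 7.35 CPM (SD, n = 3). The edgeR quasi-likelihood fit gave a log2 fold change of -0.08 (SE 0.09, 95% interval -0.27 to 0.12, adjusted p = 0.704).

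Gria2 measured 970, 975, 1161 and 937 CPM in AM6545 replicates B, D, E and F, and 804, 898 and 960 CPM in vehicle replicates B, D and E. AM6545 replicate E stood above all other libraries and vehicle replicate B below them, while AM6545 replicate F fell below vehicle replicate E, so the groups overlapped. The means were 1011 ± 102 CPM (SD, n = 4) and 887 ± 78.4 CPM (SD, n = 3). In the edgeR fit the log2 fold change was 0.19 (SE 0.11, 95% interval -0.06 to 0.43, adjusted p = 0.451).

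Gria3 measured 140, 145, 177 and 133 CPM in AM6545 replicates B, D, E and F, and 131, 126 and 135 CPM in vehicle replicates B, D and E. Replicate E was again the highest AM6545 library and F the lowest, below vehicle replicate E. The means of 148 ± 19.3 CPM (SD, n = 4) and 131 ± 4.95 CPM (SD, n = 3) gave an edgeR log2 fold change of 0.18 (SE 0.11, 95% interval -0.06 to 0.42, adjusted p = 0.453).

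Gria4, the scarcest of the 4, measured 34.1, 40.5, 50.3 and 33.0 CPM in AM6545 replicates B, D, E and F, and 32.0, 32.3 and 37.2 CPM in vehicle replicates B, D and E. AM6545 replicates D and E lay above every vehicle library and B and F did not. Mean levels were 39.5 ± 7.92 CPM (SD, n = 4) against 33.8 ± 2.94 CPM (SD, n = 3). The edgeR fit gave a log2 fold change of 0.22 for Gria4 (SE 0.14, 95% interval -0.09 to 0.54, adjusted p = 0.478).

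**Figure D1:**
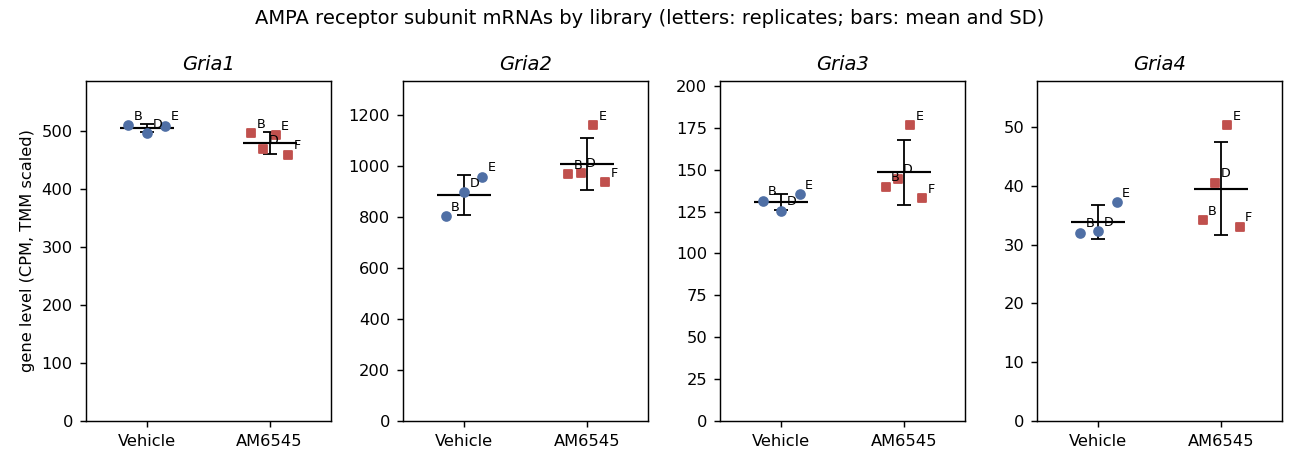
Level of each AMPA receptor gene (vertical axes, CPM after TMM scaling, each from 0) in the 3 vehicle libraries (blue circles) and the 4 AM6545 libraries (red squares); letters name the replicates, and the lines give the mean and SD. AM6545 replicate E is the highest point for Gria2, Gria3 and Gria4, and the 4 AM6545 points for Gria1 lie below the vehicle points.

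None of the 4 genes passed an adjusted p under 0.05, and none had an unadjusted p under 0.05. Over all 14654 genes tested by edgeR, 0.00682% passed the adjusted threshold, which is 1 gene, and 14.6% had an unadjusted p under 0.05. DESeq2 also called 0 of the 4. The groups did not overlap for 1 of the 4, Gria1, against 13.8% of all genes tested. On the per-length scale this differed. There Gria1 overlapped, with a higher mean in AM6545 (174 ± 7.06 TPM, SD, n = 4) than in vehicle (169 ± 11.6 TPM, SD, n = 3). Gria2, at 379 to 494 TPM in AM6545 and 253 to 367 TPM in vehicle, and Gria3, at 53.0 to 74.1 and 43.7 to 51.4 TPM, did not overlap, against 15.2% of all genes on that scale. The median log2 difference over all genes was 0.12 in TPM and 0.01 in CPM. The direction of Gria1 thus depends on the scale, and the shares and ratios below do not carry that shift. In edgeR the median log2 fold change of the 4 was 0.19, against 0.01 over all genes tested. The 95% intervals reach an increase of 1.35-fold for Gria2, 1.34-fold for Gria3 and 1.45-fold for Gria4, and a decrease to 0.83 of vehicle for Gria1.

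The 3 higher genes have lower GC content than Gria1. It is 41.5% for Gria2, 43.2% for Gria3 and 43.5% for Gria4, against 48.6% for Gria1. When all tested genes were cut into 10 equal bins of GC content, 77.0% of the genes in the bin of Gria2 were higher in AM6545. The value was 72.9% in the bin of Gria3 and Gria4 and 57.0% in that of Gria1. A correction of every library's trend with GC and length gave log2 fold changes of 0.08 for Gria2, 0.03 for Gria3, 0.02 for Gria4 and -0.11 for Gria1. Leaving out AM6545 replicate E left 0.11 for Gria2 and 0.09 for both Gria3 and Gria4. Each of the 4 genes kept its direction in all 18 alternative fits of counts.

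The balance between Gria1 and Gria2 differed between every AM6545 library and every vehicle library. How often shares or ratios of other genes separate the groups is not given here. Single genes did so for 13.8% of genes in CPM and 15.2% in TPM. Each library's summed per-length level of the 4 genes was taken as 1 pool, and each gene's share of it was compared. The Gria1 share was 27.2%, 25.9%, 23.3% and 26.9% in AM6545 replicates B, D, E and F, and 33.4%, 29.4% and 28.2% in vehicle replicates B, D and E. All 4 AM6545 libraries lay below all 3 vehicle libraries. The means were 25.8% ± 1.80 (SD, n = 4) and 30.3% ± 2.71 (SD, n = 3), a difference of -4.50 percentage points. The exact two-sided permutation test over the 35 splits gave p = 0.0286, the smallest this design allows, and 0.0571 after adjustment over the 4 shares, which misses the threshold. With only the Gria1 and Gria2 shares at the smallest p, the adjusted p could not have passed.

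The Gria2 share was the mirror of this, since the shares of a pool sum to the whole. It was 61.0%, 61.1%, 63.0% and 61.3% in AM6545 replicates B, D, E and F, and 54.0%, 59.3% and 59.98% in vehicle replicates B, D and E. All 4 AM6545 libraries lay above the vehicle libraries, the closest pair being AM6545 replicate B and vehicle replicate E. The difference was 3.81 percentage points (exact permutation p = 0.0286, adjusted 0.0571). The Gria3 share was 8.93% ± 0.427 in AM6545 and 8.65% ± 0.612 in vehicle (exact permutation p = 0.514), and the Gria4 share 3.65% ± 0.509 and 3.24% ± 0.160 (exact permutation p = 0.314). Both overlapped between the groups.

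Expressed as a ratio, there were 2.40 ± 0.215 Gria2 transcripts per Gria1 transcript in AM6545 (SD, n = 4) and 1.92 ± 0.267 in vehicle (SD, n = 3). The lowest AM6545 ratio was 2.24 and the highest vehicle ratio 2.13. On estimated counts, with no division by length, the ratios were 2.11 ± 0.174 and 1.76 ± 0.160. These levels take in all annotated transcripts of a gene, coding or not. With protein-coding transcripts only, the Gria1 share differed by -4.58 points and the Gria2 share by 3.29 points. Without vehicle replicate B the Gria1 share differed by -2.97 points and the Gria2 share by 1.93 points, each in the same direction. The difference between the log2 fold changes of Gria2 and Gria1 was 0.26, and 0.19 once GC and length were corrected.

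**Figure D2:**
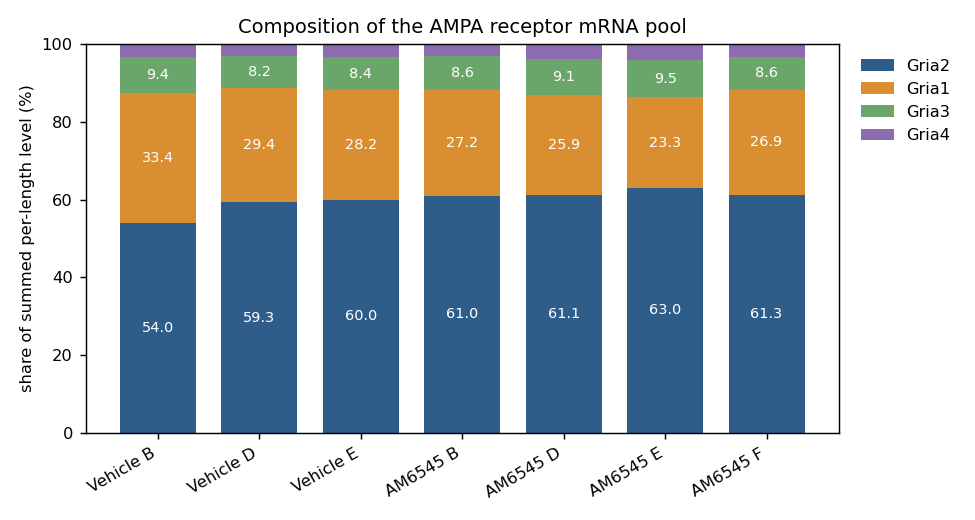
Composition of the AMPA receptor mRNA pool in each library (horizontal axis, 3 vehicle then 4 AM6545 libraries), as each gene's share of the summed per-length level of the 4 genes (vertical axis, percent, from 0 to the whole). The Gria1 segment is 28.2% to 33.4% in vehicle and 23.3% to 27.2% in AM6545, and the Gria2 segment 54.0% to 59.98% and 61.0% to 63.0%.

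Of the 26 transcripts, 16 passed the filter on low counts, 7 fell below it and 3 had no counts in any library. By gene, 2 of 5 Gria1 transcripts, 6 of 8 of Gria2, 5 of 9 of Gria3 and 3 of 4 of Gria4 were tested. In edgeR 10 of the 16 were higher in AM6545 and 6 lower, and 0 passed an adjusted p under 0.05 (range 0.576 to 0.929), against 0.0177% of the 33962 transcripts tested. An unadjusted p under 0.05 was found for 1, against 8.39% of all, and the groups did not overlap for 2, against 10.8% of all.

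As estimated from the annotated transcripts, the flip form was the rarer form of Gria1 mRNA and made up most of Gria2 and Gria3 mRNA. In Gria2 and Gria3 the 3′ ends also enter the estimate. Shares are per length, over transcripts that carry 1 cassette only. For Gria1 the flip share was 26.3% ± 2.01 in AM6545 (SD, n = 4) and 26.1% ± 1.70 in vehicle (SD, n = 3), a difference of 0.215 points with full overlap (exact permutation p = 0.886). Gria1-202, the flop transcript, held 73.2% ± 2.03 of Gria1 counts in AM6545 and 73.4% ± 1.72 in vehicle, and Gria1-201, the flip transcript, held nearly all the rest. Gria1-204, a further flip transcript, was estimated at 0 in 5 of the 7 libraries, which allows shares of up to 0.0286%, for counting error only.

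For Gria2 the flip share was 85.96%, 84.8%, 86.6% and 83.6% in AM6545 replicates B, D, E and F, and 77.6%, 84.1% and 84.3% in vehicle replicates B, D and E. Vehicle replicate B stood alone, below the other 6 libraries, which lay within a few points of each other. The means were 85.3% ± 1.31 and 82.0% ± 3.84 (exact permutation p = 0.143), a difference of 3.24 points that was 1.02 without vehicle replicate B. On counts without division by length the shares were 69.2% and 64.1%. Division by length lowers the weight of the flop transcript, which is 10371 bases long against 4026 for the flip transcript. The annotated flop transcript also has the lower GC content, 36.8% against 43.6%.

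The higher Gria2 mean in AM6545 lay mainly in the flip transcript Gria2-202. It measured 630 ± 86.4 CPM in AM6545 and 517 ± 71.5 CPM in vehicle (edgeR log2 fold change 0.29, SE 0.14, adjusted p = 0.640). The flop transcript Gria2-201 measured 279 ± 17.4 and 287 ± 31.3 CPM (log2 fold change -0.04, SE 0.10, adjusted p = 0.929 in edgeR). Neither passed, and both overlapped between groups. Without vehicle replicate B the log2 fold changes were 0.18 for Gria2-202 and 0.05 for Gria2-201, and without AM6545 replicate E that of Gria2-202 was 0.19. Gria2-206, annotated as a transcript with a retained intron and no cassette, held 6.78% ± 0.625 of Gria2 counts in AM6545 and 5.89% ± 1.72 in vehicle.

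For Gria3 the flip share was 84.1% ± 2.87 in AM6545 and 86.6% ± 3.77 in vehicle (exact permutation p = 0.371), with overlap. For Gria4, flop was the commoner form in 5 of 7 libraries. Its flip share was 29.6%, 21.6%, 21.1% and 57.6% in AM6545 replicates B, D, E and F, and 39.6%, 53.5% and 38.9% in vehicle replicates B, D and E. AM6545 replicate F had the highest share of all 7 and the other 3 AM6545 libraries the 3 lowest. The means were 32.5% ± 17.2 and 44.0% ± 8.23 (exact permutation p = 0.4), and their difference of -11.5 points was -19.9 without AM6545 replicate F. All 4 flip shares had an adjusted exact permutation p of at least 0.533. By the means of both groups Gria2 and Gria3 had the highest flip shares, Gria4 a middle one and Gria1 the lowest. The estimates for Gria2 and Gria3 rest in part on 3′ end reads.

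**Figure D3:**
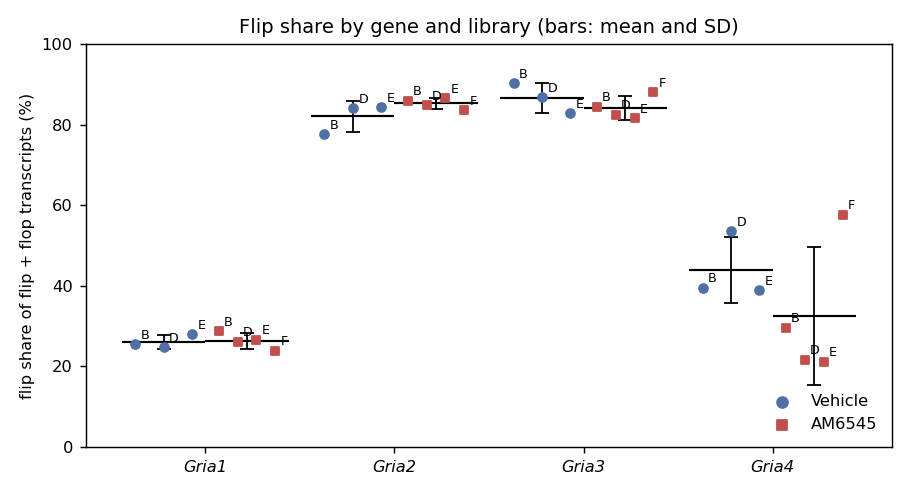
Flip share of each gene (vertical axis, percent of the per-length level of flip plus flop transcripts) in the 3 vehicle libraries (blue circles) and 4 AM6545 libraries (red squares); letters name replicates, lines give the mean and SD. Groups overlap for all 4 genes, and Gria4 spreads from 21.1% to 57.6%.

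Of 10 transcripts holding at least 5% of their gene's counts, 2 had shares that did not overlap between the groups, against 7.75% of the 26092 such transcripts in all tested genes with more than 1 transcript. With counts divided by length it was 1 of the 10, Gria4-203, against 7.7%. Neither passed adjustment over the 10 shares, and with only 2 at the smallest possible p neither could have. The first is Gria4-203, a short coding transcript of 2338 bases and 433 codons that ends before the cassette (longest Gria4 protein 902 residues). It held 52.3%, 55.1%, 58.4% and 50.5% of Gria4 counts in AM6545 replicates B, D, E and F, and 39.4%, 46.2% and 48.0% in vehicle replicates B, D and E. Every AM6545 library lay above every vehicle library. The means were 54.1% ± 3.46 and 44.5% ± 4.55, a difference of 9.54 points (exact permutation p = 0.0286, adjusted 0.143). The short transcript held more Gria4 counts than any other Gria4 transcript in all 7 libraries.

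The level of Gria4-203 was 21.6 ± 5.86 CPM in AM6545 and 15.1 ± 2.50 CPM in vehicle, with overlap (edgeR log2 fold change 0.52, SE 0.23, adjusted p = 0.612, and 0.33 without AM6545 replicate E). The flip transcript Gria4-202 held 15.5% ± 9.18 and 24.5% ± 3.98 of Gria4 counts (exact permutation p = 0.171). The flop reads went to Gria4-204 in 6 libraries and to Gria4-201, another flop transcript, in vehicle replicate D, where Gria4-204 was estimated at 0, which allows a share of up to 0.375%. These 2 transcripts share the cassette and have last exons of 2418 bases, and their sum enters the flip share above. Gria4 has 688 to 1069 estimated counts per library, so its transcript shares rest on far fewer reads than those of Gria1 and Gria2.

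The other transcript is Gria3-201, the main flip transcript of Gria3. It held 88.2%, 86.5%, 86.2% and 85.3% of Gria3 counts in AM6545 replicates B, D, E and F, and 83.6%, 85.0% and 82.1% in vehicle replicates B, D and E. On these counts the nearest libraries, AM6545 replicate F and vehicle replicate D, were within 1 point. The difference of the means was 2.97 points (86.5% ± 1.21 and 83.6% ± 1.44, exact permutation p = 0.0286, adjusted 0.143). With counts divided by length the difference was 1.48 points (exact permutation p = 0.4), and the groups overlapped, at 79.2% to 82.2% in AM6545 and 76.5% to 80.4% in vehicle. The CPM level of Gria3-201, 129 ± 17.2 CPM in AM6545 and 109 ± 1.46 CPM in vehicle did not overlap either (edgeR log2 fold change 0.24, SE 0.11, adjusted p = 0.623, and 0.15 without AM6545 replicate E).

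The Gria3 counts that Gria3-201 lacked in vehicle lay mainly in Gria3-206, a transcript with both cassettes that is annotated as a target of nonsense-mediated decay. Gria3-206 held 0%, 1.83%, 0.598% and 6.40% of Gria3 counts in AM6545 replicates B, D, E and F, where 0 allows up to 0.0929%, and 10.3%, 5.81% and 6.87% in vehicle replicates B, D and E. AM6545 replicate F lay inside the vehicle range and the other 3 below it. In the edgeR fit its log2 fold change was -1.72 (SE 1.24, adjusted p = 0.754). Gria3-205, a transcript with a retained intron, was the 1 transcript with an unadjusted p under 0.05. It had 21.6, 13.2, 19.5 and 13.1 estimated counts in AM6545 replicates B, D, E and F, and 4.81, 11.3 and 2.65 in vehicle replicates B, D and E. The edgeR log2 fold change was 1.39 (SE 0.56, unadjusted p = 0.0412, adjusted p = 0.576).

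**Figure D4:**
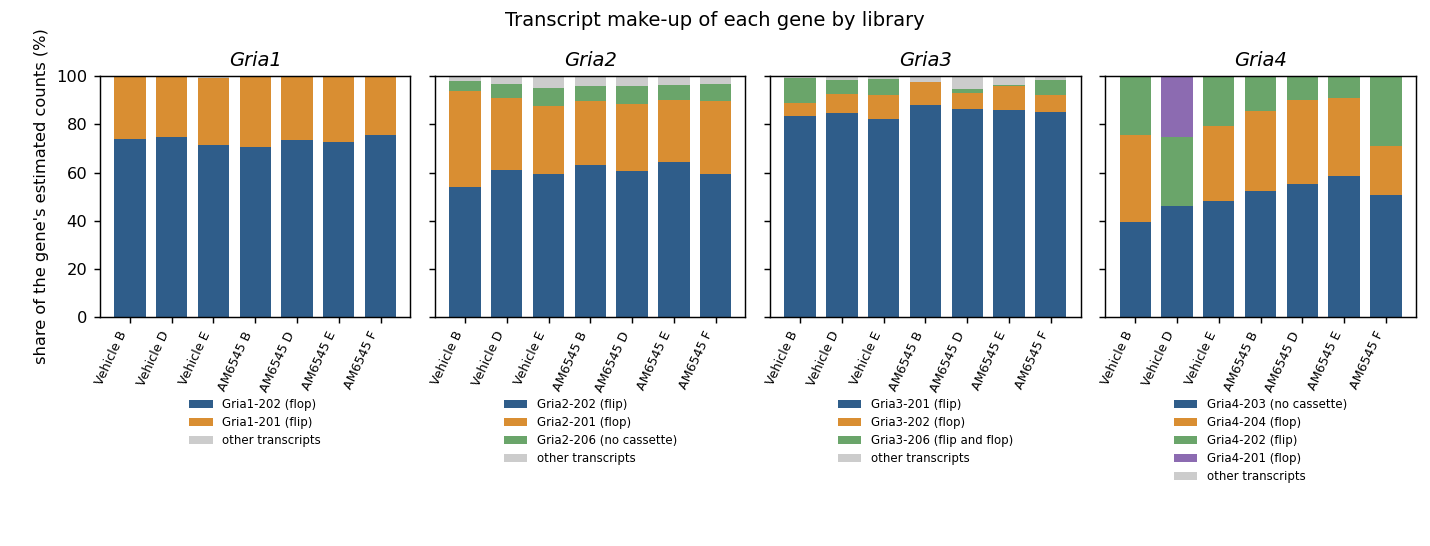
Share of each gene's estimated counts (vertical axis, percent) held by its annotated transcripts in the 3 vehicle and 4 AM6545 libraries; colours name transcripts with at least 5% in some library and the cassette each carries, grey the rest. Gria4-203 fills 39.4% to 48.0% of the bar in vehicle and 50.5% to 58.4% in AM6545, and the flop counts of vehicle replicate D fall to Gria4-201.

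Genes that work with the receptor, and subunits of other ionotropic glutamate receptors, were read from 4 lists, 46 genes in all. Of these 45 were tested, all except Grin3b, and for brevity both kinds are called partner genes here. By edgeR 0 of the 45 passed an adjusted p under 0.05. An unadjusted p under 0.05 was found for 12, which is 26.7% of the 45, against 14.6% of all genes. Of these, 11 were lower in AM6545 and 1 higher. Over all genes 8.7% were lower and 5.86% higher at that threshold. DESeq2 called 3 of the 40 given an adjusted p, against 2.44% of all genes, and edgeR without vehicle replicate E called 11 of 45, against 6.38%. The lists were chosen with earlier results of these data known, so these shares describe the lists and do not test them.

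Of the 16 auxiliary and assembly genes, 12 were lower, 4 of them at an unadjusted p under 0.05, and none was higher at it (median log2 fold change -0.11). Cacng2 encodes stargazin, which carries AMPA receptors to the surface and holds them at the synapse. It measured 24.3, 26.7, 27.6 and 28.04 CPM in AM6545 replicates B, D, E and F and 50.7, 37.1 and 29.7 CPM in vehicle replicates B, D and E. The groups did not overlap, and the vehicle libraries were widely spread (edgeR log2 fold change -0.56, SE 0.15, adjusted p = 0.205, DESeq2 adjusted p = 0.0449). Cnih2, a cornichon that slows the closing of the receptor, had a log2 fold change of -0.36 (edgeR adjusted p = 0.246) and -0.05 once GC and length were corrected. Shisa7, a further auxiliary protein, had one of -0.33 (edgeR adjusted p = 0.266). Without vehicle replicate B, the highest library for all 3, the value was -0.33 for Cacng2, -0.22 for Cnih2 and -0.17 for Shisa7.

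Among the 13 anchoring and trafficking genes, 8 were higher and 5 lower, with 1 and 2 at an unadjusted p under 0.05 (median 0.08). Dlg4, which encodes the scaffold PSD-95, had a log2 fold change of -0.52 (SE 0.21, edgeR adjusted p = 0.2998) and ranged from 52.0 to 104 CPM within vehicle alone. Its log2 fold change was -0.28 without vehicle replicate B. Epb41l1, a cytoskeletal partner of GluA1, had one of -0.30 (edgeR adjusted p = 0.304), which was -0.16 without vehicle replicate B and -0.16 once GC and length were corrected. Akap5, the anchor for kinase and phosphatase at the receptor, went the other way at 0.23 (edgeR adjusted p = 0.338), with 28.1 to 32.6 CPM in AM6545 and 24.1 to 27.4 CPM in vehicle.

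Of the 3 RNA editing enzymes, Adarb1 encodes ADAR2, which edits the pore residue of GluA2. It measured 25.5, 27.3, 24.2 and 26.2 CPM in AM6545 replicates B, D, E and F, and 37.2, 36.0 and 29.3 CPM in vehicle replicates B, D and E. All AM6545 libraries lay below all vehicle libraries. The edgeR log2 fold change was -0.40 (SE 0.11, adjusted p = 0.199), -0.32 once GC and length were corrected, with an adjusted p of 0.0488 in DESeq2. Adar and Adarb2 had log2 fold changes of 0.15 and 0.08, with overlap, and of 0.05 and -0.02 without vehicle replicate B. Editing itself was not analysed here.

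Of the 13 other ionotropic glutamate receptor genes tested, 9 were lower, 4 of them at an unadjusted p under 0.05, and none was higher at it (median -0.16). Grik5, a high-affinity kainate receptor subunit, measured 64.0 to 77.0 CPM in AM6545 and 83.6 to 133 CPM in vehicle, without overlap (edgeR log2 fold change -0.58, SE 0.14, adjusted p = 0.199, DESeq2 adjusted p = 0.0213). Its log2 fold change was -0.46 once GC and length were corrected and -0.39 without vehicle replicate B, its highest library. Grik3, also a kainate receptor subunit, had a log2 fold change of -0.54 (edgeR adjusted p = 0.247). It was -0.32 once GC and length were corrected and -0.38 without vehicle replicate B. The NMDA receptor subunit Grin2b had one of -0.35 (edgeR adjusted p = 0.282), which was -0.13 with that correction and -0.19 without vehicle replicate B. Exons of Cacng2, Cnih2, Adar and Grin2b overlap a gene on the opposite strand, and use of strand in counting is not given in the sources used here. Among the members, exons of Gria2, Gria3 and Gria4 overlap Gm25749, Gm22413 and Gm23811 on the same strand. Any effect on the counts was not tested.

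**Figure D5:**
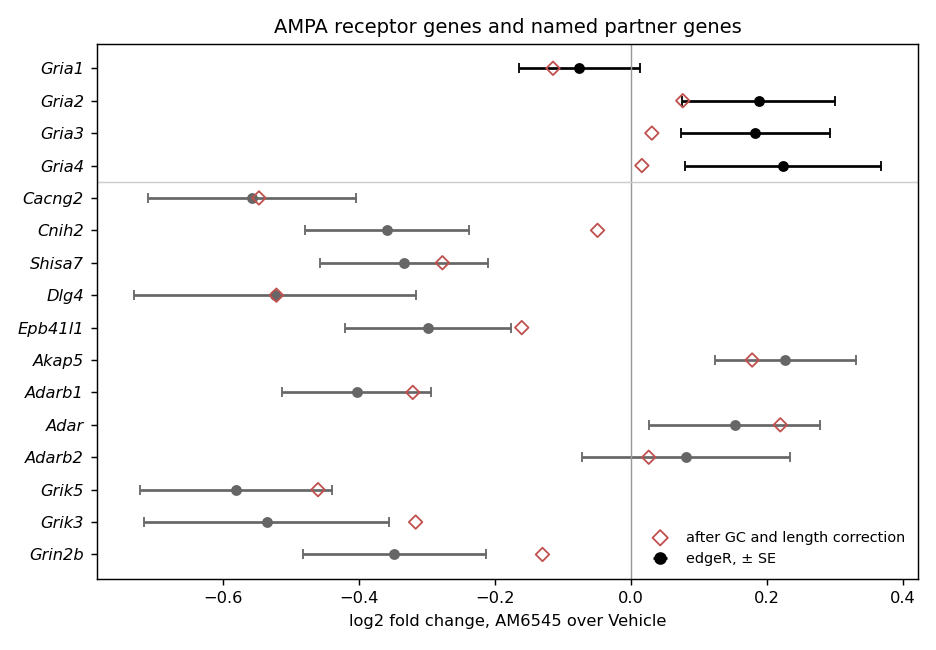
Log2 fold change of AM6545 over vehicle (horizontal axis) for the 4 AMPA receptor genes (black) and the 12 named partner genes (grey), as points with the standard error, and after correction of each library for GC content and length (red diamonds, with no error shown). Gria2, Gria3 and Gria4 move towards 0 with the correction, to 0.08, 0.03 and 0.02, while Cacng2 and Dlg4 hardly move.

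Across the 7 libraries, Gria2, Gria3 and Gria4 varied together and Gria1 varied largely apart from them. The correlation of log2 CPM was 0.95 between Gria3 and Gria4, 0.89 between Gria2 and Gria4 and 0.88 between Gria2 and Gria3, and it was -0.22 to -0.08 between Gria1 and the other 3. These are descriptions over 7 points that share library, depth and the GC trend. Among 9450 genes at 10 CPM or more, the closest to Gria1 were Hsd17b12 (0.97), Prdx4 (0.96) and P4htm (0.96). The closest to Gria2 were Ttc17 (0.99), Ostm1 (0.98) and Pcyox1 (0.98). Those named for Gria3 were Robo2 (0.99) and Slc4a10 (0.99), and for Gria4 they were Cntn1 (0.996), Syt1 (0.99) and Serpini1 (0.99).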

How the data were processed

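The deposited gene and transcript tables hold estimated counts per library, not scaled to a common total. Salmon 1.5.2 and mm10 are named in the submitters' processing notes; which annotation was used, and whether strand was, is not given in the sources used here. Per the labels, the kits were RNeasy mini for total RNA and SMARTer Ultra Low Input for libraries. Library totals ranged from 19174649 to 25894733 counts.

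Names, lengths, GC content and exons came from GENCODE M21, which held 22148 of 22248 gene and 101527 of 102392 transcript identifiers; 22135 genes carried a higher version in the deposited table, so models may differ from those used for counting. Cassette exons were identified from the translated coding sequence. Counts were rounded and tested with edgeR 4.0.16 (quasi-likelihood, TMM, filterByExpr, robust, R 4.3.3) over all genes or transcripts, with Benjamini-Hochberg adjustment. Standard errors are the fold change over the root of F. Per-length levels are counts over annotated length. Shares were tested by exact permutation of the libraries, two-sided, adjusted within each family of 4 or 10. The code was tested on simulated data.

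Named were the 4 genes, transcripts with a mean share of at least 5% or past a threshold or with a cassette, 3 partner genes per list by smallest p, and the 3 genes most correlated with each member, of which 1 for Gria3 is not reported here. The members and lists were chosen with earlier results of these data known. Alternatives were other scalings and filters, DESeq2 1.42.0, limma-voom (limma 3.58.1), transcripts summed per gene, the replicate letter as a block, a lowess correction for GC content and length, shares on counts or on coding transcripts only, and leaving out each library.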

Additional observations from a re-analysis of the deposited data

Results flagged for a closer look

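Of 38 values compared within the 4 AM6545 libraries, 3 had 1 library far from the other 3. Chance alone would give about 1.9 if the values were independent. They are not, and the Gria2 level and Gria2 share below rest on the same counts. Gria2 measured 1161 CPM in AM6545 replicate E, while its 3 fellow replicates ran from 937 to 975 CPM and the vehicle libraries from 804 to 960 CPM. The Gria2 share of the AMPA receptor pool was 63.0% in the same library, with 61.0% to 61.3% in the other 3 and 54.0% to 59.98% in vehicle. Gria4-204 held 20.7% of Gria4 counts in AM6545 replicate F, with 32.6% to 34.95% in the other 3 and 0 to 36.2% in vehicle.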

How the results depend on the processing

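No alternative fit of counts brought any of the 4 genes past the threshold or turned its direction. The smallest adjusted p over the 18 alternatives was 0.636 for Gria1, 0.224 for Gria2, 0.301 for Gria3 and 0.242 for Gria4. With the replicate block the log2 fold changes were -0.06, 0.22, 0.23 and 0.29, and Gria1-201 turned from -0.05 to 0.012. After removal of the group means, libraries with the same letter correlated at -0.26, -0.13 and -0.18, and those with unlike letters at -0.17 to 0.22. Such deviations must cancel within each group, so they cannot show whether the letters mark a shared preparation. Partner genes called numbered 3 with DESeq2 and 0 to 11 when 1 library was left out, 11 without vehicle replicate E.

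Leaving out 1 library turned the direction of 9 differences, among them the Gria4-204 share, at 7.82 points with all libraries and -3.45 without vehicle replicate D. The Gria1 flip share difference ran from -0.588 to 1.17 points, the Gria1-201 share from -0.389 to 1.13, the Gria1-202 share from -1.18 to 0.596, the Gria3-202 share from -0.695 to 1.71 and the Gria4-204 share from -3.45 to 14.7. The log2 fold change ran from -0.105 to 0.0138 for Gria1-201, -0.096 to 0.0543 for Gria2-201, -0.104 to 0.52 for Gria2-203 and -0.0239 to 0.307 for Adarb2. The cause was not tested. With 4 and 3 libraries the exact test cannot go below 0.0286, and with 1 library fewer it cannot reach the threshold. Gria4 had 688 to 1069 estimated counts per library, the fewest of the 4 genes.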
